A study of Mus musculus with 5 samples.

Results

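The cells described here are capillary-like endothelial cells of the mouse temporomandibular joint (TMJ) disc, that is, endothelial cells without a transcript of Selp, the gene of the venular adhesion molecule P-selectin. A cell was taken when mitochondrial genes made up at most 30% of its UMIs (unique molecular identifiers, each of which stands for 1 captured transcript) and when at least 3 of the endothelial genes Pecam1, Cdh5, Emcn, Flt1, Egfl7 and Ptprb had a UMI. It also had to hold 0 UMIs of Selp and of the myeloid gene Tyrobp, and a UMI in fewer than 2 of the arterial genes Gja4, Gja5, Sox17, Hey1, Sema3g and Efnb2. The rule found 1422 cells among 51688 retained cells, and 1422 of the 3166 cells that met its endothelial and Tyrobp conditions. The members were thus selected on measured UMIs of these genes, so the levels of these 14 genes describe the selection and were not tested.

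Capillaries are the narrowest vessels, in which the endothelium passes oxygen, solutes and fatty acids between blood and tissue. They lie between arterioles, whose endothelium carries Notch ligands and connexins, and postcapillary venules, where selectins and adhesion molecules capture leukocytes from the blood. Most of the adult TMJ disc, a plate of fibrocartilage between the jaw and the skull, is poor in vessels, and those it has run mainly in its attachments.

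Discs of wild-type C57BL/6 mice were profiled by 10x Genomics 3′ single-cell RNA sequencing in 5 libraries, 1 for each condition: uninjured discs at 3 days (3 d), 3 weeks (3 w), 16 weeks (16 w) and 78 weeks (78 w) of age, and injured discs. The injured mice were operated on at 5 weeks of age, when the anterior band of the disc was punctured with a needle, and their discs were collected 2 weeks later, at 7 weeks. The labels give every library as wild type, whereas the study's methods describe this operation in Myh11-CreER; Tm fl/- mice, a cross that traces smooth muscle and mural cells. The study's methods give pups of both sexes for the 3 d suspension and males for the 3 w, 16 w and 78 w discs. They state that lineage tracing with Myh11-CreER used males, since that transgene lies on the Y chromosome, and give no sex for the sequenced injured discs. No library of uninjured 7-week-old discs was analysed, so the injured library was set against both the 3 w and the 16 w libraries.

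The rule took 565 cells at 3 d, 253 at 3 w, 222 at 16 w, 237 at 78 w and 145 in the injured library. Their summed UMIs came to 4123858, 1668959, 1297041, 1251591 and 380740 in the same order, so that 1 UMI was worth 0.242 CPM at 3 d and 2.63 CPM in the injured library. CPM is the usual scale of counts set to an equal total, here taken over the summed UMIs of the members of a library. The injured cells were also the shallowest, with a median of 2051 UMIs per cell against medians of 4129 to 5639 in the other 4 libraries. None of the member barcodes occurred in more than 1 library, although 274 barcodes of retained cells did. Of the members, 182 had exactly 3 of the endothelial genes and 653 had all 6, while 478 cells that met the other conditions stayed outside with 2. By the arterial genes, 764 of the same members had 1 and 658 had 0, and 483 cells stayed outside with 2. The Selp condition kept out 96 cells that held a single Selp UMI, and the Tyrobp condition kept out 24 cells.

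Capillary-like cells made up 3.78% of retained cells at 3 d (95% exact Clopper-Pearson interval 3.48 to 4.10), 2.70% at 3 w, 2.53% at 16 w, 2.34% at 78 w and 1.71% in the injured library (1.45 to 2.01). With every cell of at least 1000 UMIs thinned at random to 1000 before the rule was applied, the order was another one. The shares were 3.40%, 3.45%, 3.45% and 2.87% from 3 d to 78 w, with overlapping intervals, and 1.26% in the injured library (1.02 to 1.54). Thinning also removes UMIs of Selp and of the arterial genes, so that venular and arterial cells can enter the class, and the thinned shares are not shares of the same cells. At 3 w, for example, the rule took 321 thinned cells, while the arterial class had 52 thinned cells against 287 as deposited. The injured share stayed below the other 4 on both scales. Venular cells, taken by the same rule but with at least 1 Selp UMI, numbered 53, 183, 157, 228 and 54 in the order of the libraries. Members formed 61.5%, 33.5%, 38.9%, 36.35% and 53.7% of endothelial cells in the same order. After thinning they formed 88.5%, 64.8%, 74.1%, 63.3% and 74.4%, so these shares depend on depth as well. With 1 library per condition there is no replicate, and all intervals cover counting error only.

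**Figure D1:**
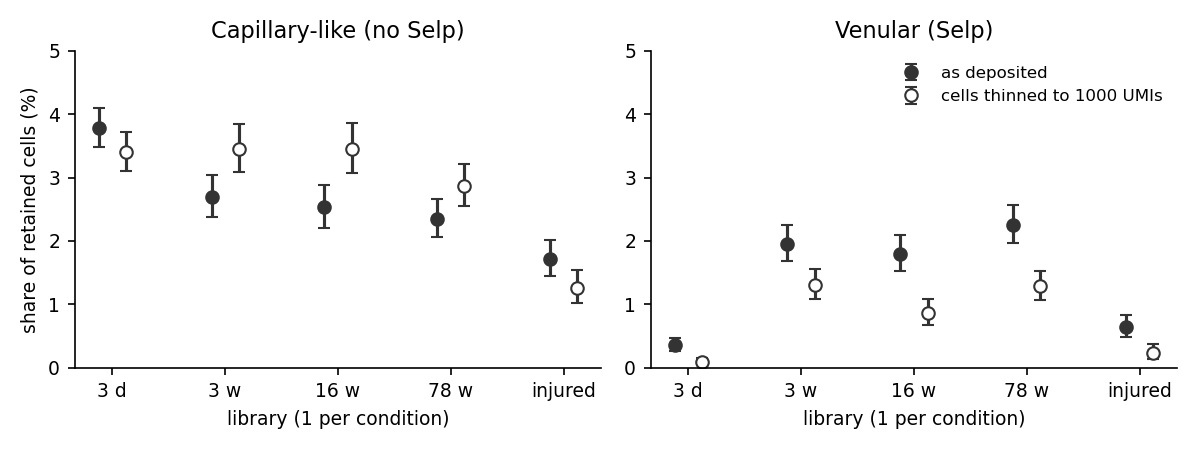
Share of retained cells (%) that were capillary-like (left) or venular (right) in each library, as deposited (filled points) and after each cell was thinned to 1000 UMIs (open points), with 95% exact binomial intervals. The capillary-like shares from 3 d to 16 w differ as deposited and lie close together after thinning, and the injured library is the lowest in the left panel on both scales.

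Endothelial genes that the rule did not use were high in these cells in every library. Summed over 18 such genes, among them Kdr (the main VEGF receptor), Tie1, Eng and Esam, the level was 3947 CPM at 3 d, 4207 at 3 w, 4973 at 16 w, 5189 at 78 w and 3506 in the injured library. Other cells of the same libraries, with a UMI in fewer than 2 of the 6 endothelial genes, reached 256 to 470.2 CPM for that sum. Capillary markers set the members apart less evenly. Gpihbp1, which holds lipoprotein lipase on the capillary lumen, and Cd300lg, an endothelial surface glycoprotein, were each at most 3.60 CPM in these other cells, although arterial endothelial cells held them too, with Gpihbp1 at 717 CPM at 3 d against 724 in members. Car4, the carbonic anhydrase used as a marker of many capillary beds, was near absent, at 1.21 CPM at 3 d, 6.59 at 3 w, 3.85 at 16 w, 30.4 at 78 w and 0 in the injured library. Rgcc, a cell cycle regulator used as a capillary marker, did not set the members apart, since from 3 w on other cells held more of it.

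Transcripts of other cell types were present at uneven levels. The 8 macrophage and leukocyte markers summed to 18.0 to 52.5 CPM in members, against 301 to 927 CPM in other cells, with Ptprc at 0.799 CPM or less. The 5 erythroid markers summed to 4245 CPM at 3 d, led by Hbb-bs at 2136 CPM, against 14885 CPM in other cells, and to 6.59 to 49.9 CPM in the other 4 libraries. The 11 stromal markers summed to 13711, 24240, 16778, 15477 and 21046 CPM in the order of the libraries, with Col1a1 or Dcn the most abundant, against 36474 to 70643 CPM in other cells. All 11 were detected in every library. Muscle and Schwann cell markers summed to at most 57.5 CPM, and Myh4, which defines fast muscle fibres, had 0 UMIs in all 5 libraries.

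Part of the stromal signal sat in few members. In 68 of the 1422 members the 6 endothelial genes of the rule made up less than 1000 CPM of the cell, and these 44, 5, 8, 6 and 5 cells held 14.9%, 13.3%, 9.45%, 12.6% and 15.3% of the member UMIs. At 3 w a single cell with 140751 UMIs, 5 of them from the endothelial genes, held 8.43%. The median stromal sum of a cell was 68149 CPM in these cells at 3 w and 739 CPM in the remaining 3 w members. Without these cells the summed stromal level was 10427, 16836, 13433, 10966 and 11593 CPM. Values without them, an alternative chosen after the data had been seen, are given beside named genes that lost a call.

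Members differed in kind within a library. At least 3 of 12 capillary markers had a UMI in 79.5% of members at 3 d, 84.2% at 3 w, 74.3% at 16 w, 75.9% at 78 w and 33.1% in the injured library. After thinning to 1000 UMIs those shares were 31.8%, 36.4%, 28.2%, 32.9% and 10.3% (5.61 to 17.0 in the injured library), so the injured cells remained the lowest at equal depth. Cells with several cell cycle transcripts were found mainly at 3 d. At least 4 of 10 cell cycle genes had a UMI in 145 of the 565 members at 3 d (25.7%, 22.1 to 29.5), in 0 members at 3 w, 16 w and 78 w, and in 1 injured member. The 3 d members also had the highest median of UMIs per cell, and after thinning to 1000 UMIs the count was 26 of 532 members at 3 d (4.89%, 3.22 to 7.08) and 0 in the other 4 libraries. Lymphatic transcripts marked a few members only, since at least 4 of 7 lymphatic markers had a UMI in 4, 8, 0, 12 and 2 members. Lymphatic endothelium is known to share most of the endothelial genes of the rule, and these 26 cells were kept among the members.

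**Figure D2:**
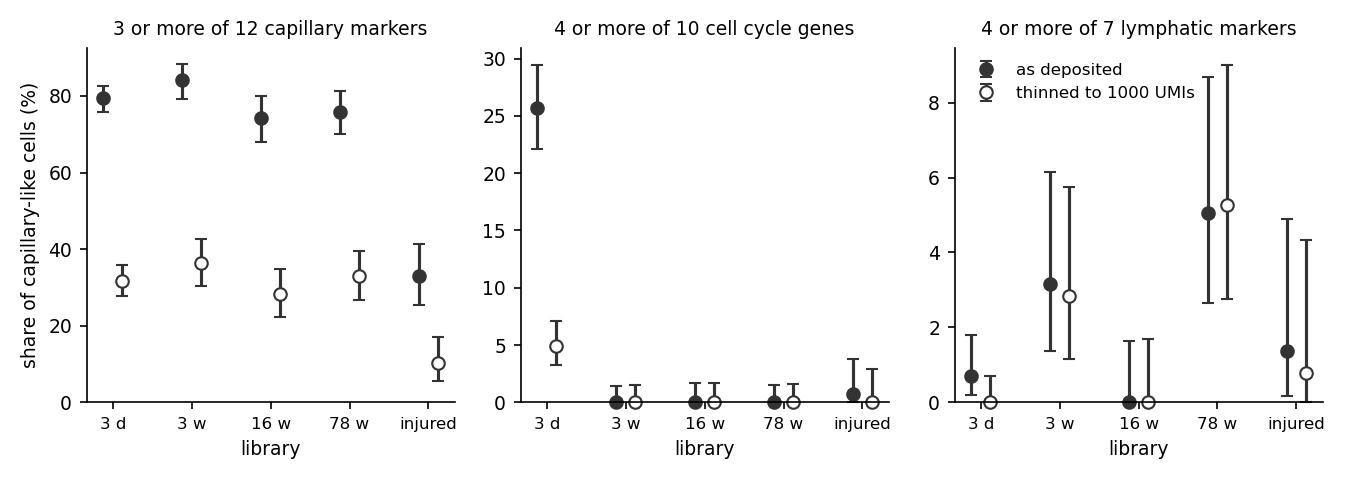
Share of capillary-like cells (%) with UMIs in at least 3 of 12 capillary markers, 4 of 10 cell cycle genes or 4 of 7 lymphatic markers, by library, as deposited (filled) and thinned to 1000 UMIs per cell (open), with 95% exact binomial intervals. Cells with cell cycle genes stand at 25.7% at 3 d (4.89% thinned) and at 0.690% or less elsewhere, and the injured library is lowest for capillary markers in both versions.

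How the members differ from venular cells was tested within libraries, with edgeR's quasi-likelihood test on UMIs summed per library and class and the library as a block. The 5 libraries served as replicates although they are of 5 conditions, so a call rests on the mean difference over ages and injury. It did not require the same direction in every library. Of 9976 genes tested, 250 (2.51%) were higher in capillary-like cells and 521 (5.22%) in venular cells at a Benjamini-Hochberg adjusted p below 0.05. Genes of the rule were left out of these counts. The counts depended on single libraries. They were 162 and 286 without the 3 w library and 130 and 284 without the 78 w library. Venular cells were deeper, with medians of 2431 to 8563 UMIs per cell, so the test was repeated with cells of at least 5000 UMIs in both classes. Selp stood in venular cells at 264 CPM at 3 d, 5557 at 3 w, 1879 at 16 w, 2970 at 78 w and 3082 in the injured library. At 3 d a cell of venular kind could thus more easily show 0 Selp UMIs and count as a member. The part of this in the size of the gaps was not tested.

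Genes of vessel sprouting and of the capillary wall were on the capillary-like side of the comparison with venular cells. Of the 11 genes listed for sprouting, 6 were higher in capillary-like cells, or 5 with cells of at least 5000 UMIs, and 0 in venular cells. Esm1, which encodes the secreted proteoglycan endocan of tip cells, stood at 63.8 CPM at 3 d, 252 at 3 w, 125 at 16 w, 130.2 at 78 w and 292 in the injured library, whereas venular cells showed 8.58 CPM at 3 d, 2.90 at 3 w, 0 at 16 w, 0 at 78 w and 0 in the injured library. Members were far above venular cells in 5 of 5 libraries, with an edgeR log2 difference of 6.22 (adjusted p = 1.76e-08). Apln, the gene of the peptide apelin, and Pgf, a VEGF-family ligand, were also higher in all 5 libraries, with edgeR log2 differences of 2.46 (adjusted p = 0.000202) and 2.77 (adjusted p = 1.64e-05). Cxcl12, the chemokine ligand of Cxcr4, stood at 72.3 CPM at 3 d, 159 at 3 w, 817 at 16 w, 1099 at 78 w and 896 in the injured library and in venular cells at 49.8 CPM at 3 d, 29.02 at 3 w, 83.2 at 16 w, 69.4 at 78 w and 53.3 in the injured library. Its edgeR log2 difference was 2.89 (adjusted p = 1.15e-05), and the gap was smallest at 3 d. Cxcr4 itself and the Notch ligand gene Dll4 were higher too, with edgeR log2 differences of 1.52 (adjusted p = 0.00135) and 1.59 (adjusted p = 0.000264).

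Of 11 capillary markers tested, 6 were higher in capillary-like cells (Rgcc, Gpihbp1, Cd300lg, Timp4, Tcf15 and Btnl9) and 1, the water channel gene Aqp1, was higher in venular cells. Gpihbp1 stood at 724 CPM at 3 d, 199 at 3 w, 125 at 16 w, 201 at 78 w and 68.3 in the injured library, while venular cells showed 551 CPM at 3 d, 27.6 at 3 w, 5.34 at 16 w, 3.68 at 78 w and 19.97 in the injured library. The Gpihbp1 levels of both classes were thus close at 3 d, where Selp was lowest in venular cells, and far apart later. The edgeR log2 difference was 2.38 (adjusted p = 0.00245). With cells of at least 5000 UMIs Rgcc, Gpihbp1 and Timp4 kept a call, and Btnl9, Cd300lg and Tcf15 did not, at edgeR adjusted p = 0.0611, 0.0859 and 0.159. Basement membrane genes numbered 7 of 13 on the capillary-like side, or 4 with cells of at least 5000 UMIs, and 0 on the venular side. Col4a1 and Col4a2, the main collagen IV chains, had edgeR log2 differences of 1.11 (adjusted p = 0.000265) and 1.09 (adjusted p = 0.000146), each higher in 5 of 5 libraries.

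Leukocyte capture genes were on the venular side. Of 11 venular markers other than Selp, 8 were higher in venular cells and 0 in capillary-like cells, with a median log2 difference of -1.89 against 0.0092 over all genes tested. That count is no independent check, since Selp, itself a venular marker, defined the division. Sele, which encodes E-selectin, stood at 39.04 CPM at 3 d, 70.1 at 3 w, 81.7 at 16 w, 53.5 at 78 w and 31.5 in the injured library in members, and at 233 CPM at 3 d, 2097 at 3 w, 886 at 16 w, 923 at 78 w and 1125 in the injured library in venular cells. The venular value was the higher one in all 5 libraries, with an edgeR log2 difference of -4.05 (adjusted p = 1.44e-08). Ackr1, an atypical chemokine receptor typical of venules, followed the same order, with 5.09 CPM at 3 d, 5.39 at 3 w, 77.1 at 16 w, 34.4 at 78 w and 18.4 in the injured library in members and an edgeR log2 difference of -3.997 (adjusted p = 4.64e-06). Csf3, the gene of the neutrophil growth factor G-CSF, had an edgeR log2 difference of -4.44 (adjusted p = 9.73e-09), the largest on this side among genes with the same sign in every library, with 48.1 CPM at 3 d, 184 at 3 w, 93.9 at 16 w, 157 at 78 w and 259.6 in the injured library in venular cells. Among cytokines and adhesion molecules 8 of 13 were higher in venular cells, Icam1 and Il6 among them, and Cxcl12 was the 1 member of that list on the capillary-like side.

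**Figure D3:**
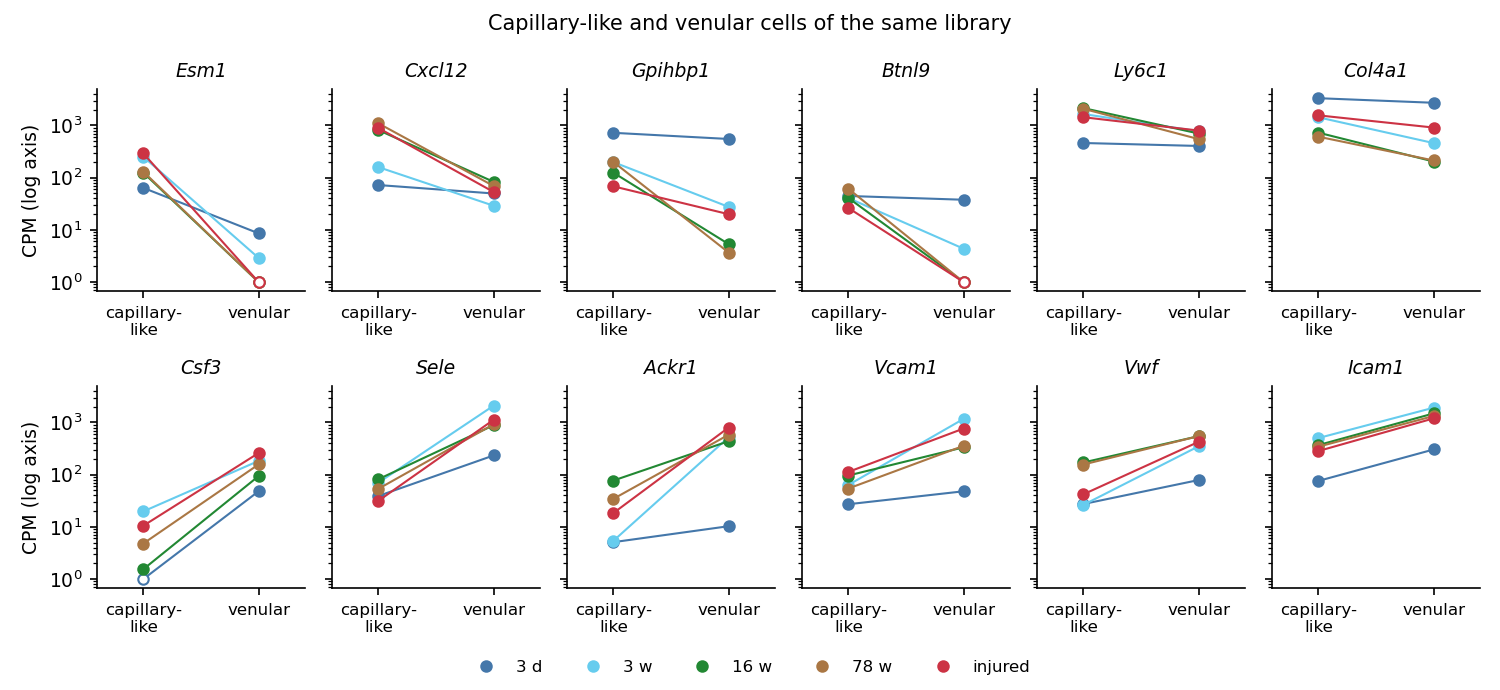
Levels (CPM, log axis) of 12 genes in the capillary-like and venular cells of each library, joined by a line per library, with values under 1 CPM drawn open at 1. The upper genes run downward and the lower genes upward in all 5 libraries, and the 3 d lines are the flattest for Cxcl12, Gpihbp1, Btnl9 and Ackr1.

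Interferon-response genes split between the classes. Irf7, Rsad2 and Ifit2 were higher in capillary-like cells, with edgeR log2 differences of 1.19 (adjusted p = 0.000964), 2.28 (adjusted p = 0.000281) and 1.46 (adjusted p = 0.00748), and Irf1, Gbp2, Ifi47, Igtp, Iigp1, Cxcl9 and Cxcl10 were higher in venular cells. At cells of at least 5000 UMIs, 1 of the first set and 7 on the venular side had a call. The genes with the largest differences on the capillary-like side also included Mmrn1 and Lyve1, both lymphatic markers, with edgeR log2 differences of 6.32 (adjusted p = 1.56e-08) and 3.54 (adjusted p = 7.14e-06). At 3 w and 78 w every Mmrn1 UMI of the members came from the cells with at least 4 lymphatic markers. St8sia6 (a sialyltransferase gene), Sema7a (a semaphorin gene), Sez6l2, Ramp3 (a receptor partner for adrenomedullin), Cldn15 and Gm12002 completed the 10. Neurl3, Tll1, Ptgs2 (prostaglandin synthesis), Cxcl9, Vcam1, Tnfrsf11a and Csf2rb2 followed Csf3, Sele and Ackr1 on the other side. Stromal markers counted 1 of 11 higher in capillary-like cells and 0 in venular cells, and erythroid markers 3 of 4 higher in capillary-like cells, or 1 of 4 without the members under 1000 CPM. The part of these transcripts in the differences was not tested.

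Arterial cells, with a UMI in at least 2 of the 6 arterial genes, numbered 279, 287, 164, 169 and 68. Of 10045 genes tested, 124 (1.23%) were higher in capillary-like cells and 245 (2.44%) in arterial cells. The counts were 48 and 109 without the 3 w library. Of 10 arterial markers outside the rule, 8 were higher in arterial cells (7 without the members under 1000 CPM), a count that is no independent check, since arterial genes defined the division. Bmx, a tyrosine kinase gene of arterial endothelium, stood at 0.727 CPM at 3 d, 4.19 at 3 w, 3.85 at 16 w, 5.59 at 78 w and 15.8 in the injured library, against 34.4 CPM at 3 d, 34.1 at 3 w, 32.6 at 16 w, 47.3 at 78 w and 67.6 in the injured library in arterial cells. The members were lower in 5 of 5 libraries, with an edgeR log2 difference of -3.43 (adjusted p = 5.34e-06). Notch pathway genes were higher in arterial cells in 7 of 10 (6 without those members), for example the ligand genes Jag1 and Jag2, with edgeR log2 differences of -1.48 (adjusted p = 5.25e-05) and -1.03 (adjusted p = 0.00171). The Notch count is no independent check either, since Dll4 and Jag1 are also among the arterial markers.

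In the other direction, 6 of 11 venular markers were higher in capillary-like than in arterial cells, but only 2 with cells of at least 5000 UMIs. Plvap and Sele were not among those 2. With cells of all depths, Ackr1, Nr2f2, Sele and Lrg1 were called in both comparisons, above arterial and below venular cells. Ackr1 had an edgeR log2 difference of 2.14 (adjusted p = 0.000207) and a higher level in 5 of 5 libraries. Plvap, which forms the diaphragms of fenestrated endothelium, and Nr2f2, a transcription factor of venous identity, were higher by 0.55 (adjusted p = 0.0129) and 0.51 (adjusted p = 0.0105) on the log2 scale. Esm1, which set members apart from venular cells, did not pass edgeR's threshold here, with a log2 difference of -0.08 (adjusted p = 0.887). Of the 11 genes listed for sprouting, 0 were higher in capillary-like cells and 3 (Pgf, Dll4 and Mcam) in arterial cells. Without the members under 1000 CPM these counts were 1 and 1. Of 13 basement membrane genes, 1 was higher in each class. The sprouting genes were thus not particular to the members.

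Capillary markers mostly did not pass the threshold between these classes. Of 12 tested, Aqp1 was higher in capillary-like cells and Btnl9 in arterial cells, with edgeR log2 differences of 0.59 (adjusted p = 0.00186) and -0.68 (adjusted p = 0.00661). Gpihbp1 stood at 717 CPM at 3 d, 150 at 3 w, 137 at 16 w, 121 at 78 w and 60.1 in the injured library in arterial cells, against 724, 199, 125, 201 and 68.3 CPM in members, with an edgeR log2 difference of 0.25 (adjusted p = 0.347).

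Transcripts of other cells moved with the comparison to arterial cells as well. Stromal markers were higher in capillary-like cells for 7 of 11 genes, 10 with cells of at least 5000 UMIs and 6 without the members under 1000 CPM, and mural markers were higher in arterial cells for 5 of 10, or 7 without those members. Ibsp, a bone and mineralizing-tissue sialoprotein gene, led the 10 named genes on the capillary-like side, with an edgeR log2 difference of 3.45 (adjusted p = 2.14e-05) and 125 CPM in the members at 78 w against 1.97 CPM in arterial cells. Ptk2b, Dmkn, Aoc2, Nts, Plekha7, Stard10, Scrg1 and Wipf3 followed it beside Ackr1. Without the members under 1000 CPM Scrg1 and Stard10 lost their calls, at edgeR adjusted p = 0.420 and 0.178. Gkn3, Serpina1b, Tox2, Nebl, Egfl8, Tspan8, Plek2, Atp2b2 and Synpo2 stood beside Bmx on the arterial side. Gkn3 had -6.59 (adjusted p = 7.67e-08) as its edgeR log2 difference and at most 1 UMI in the members of any library. The part of stromal and mural transcripts in these calls was not tested.

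Antigen presentation and interferon-response genes were higher at 3 w than at 3 d, and cell cycle and imprinted growth genes were lower. With 1 library at each age no test is possible, and a gene was counted when its CPM ratio was at least 2 or at most 0.5 and the higher library held at least 50 UMIs. Of 7270 genes, 1031 (14.2%) were at least 2-fold higher at 3 w and 1767 (24.3%) at least 2-fold lower, and the median log2 ratio over all of them was -0.29. Since 1 UMI was worth 0.599 CPM at 3 w and 0.242 CPM at 3 d, 50 UMIs stood for a higher level at 3 w. A low gene could count as lower more easily than as higher, which partly sets the balance of these counts. Jag2, with 42 UMIs and 25.2 CPM at 3 w against 6.79 CPM at 3 d, was not compared. All 8 genes of MHC and antigen presentation with enough UMIs were higher at 3 w, with a median log2 ratio of 2.05. H2-K1, a heavy chain of MHC class I, stood at 58.2 CPM at 3 d, 559.6 at 3 w, 738 at 16 w, 1005 at 78 w and 531 in the injured library in members and at 29.9 CPM at 3 d, 97.2 at 3 w, 125 at 16 w, 176 at 78 w and 116 in the injured library in other cells. Its 3 w level was 9.62 (95% interval 8.34 to 11.1) times the 3 d level, and all later libraries stayed above 3 d. B2m, the light chain of the same complex, and Tap1, which carries peptides into the endoplasmic reticulum, had ratios of 2.72 (2.55 to 2.90) and 8.33 (5.89 to 12).

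Interferon-response genes were higher at 3 w for 11 of 13 and lower for 0, with a median log2 ratio of 2.63. Gbp2, an interferon-induced guanylate-binding protein gene, stood at 10.7 CPM at 3 d, 477 at 3 w, 47.8 at 16 w, 61.5 at 78 w and 26.3 in the injured library, and other cells showed 3.93 CPM at 3 d, 17.9 at 3 w, 12.2 at 16 w, 10.5 at 78 w and 5.06 in the injured library. It was highest at 3 w, and its 3 w to 3 d ratio was 44.7 (32.99 to 62.02). Igtp, an immunity-related GTPase gene, and Isg15, a ubiquitin-like modifier, had ratios of 14.2 (8.79 to 24.1) and 7.58 (4.94 to 11.96). Venular cells were also highest at 3 w for Gbp2, with 24.03 CPM at 3 d, 601 at 3 w, 51.1 at 16 w, 253 at 78 w and 59.9 in the injured library.

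A short DNA word that interferon regulatory factors are known to bind was looked for in the promoters of both groups, to show the sequence beside the levels. The word GAAA, any 2 bases, GAAA, read on both strands in the 300 bases from 250 before to 50 after a gene's start in RefSeq on GRCm38.p6, occurred in 3.44% of 32851 promoters and, counted by gene, for 3.99% of 27025 genes. It occurred for 8 of the 14 interferon-response genes with a promoter entry and for 1 of 10 genes of antigen presentation, B2m. The windows of 30 bases below run 5′ to 3′ on the strand of the gene with the word in capitals, and where it lies on the other strand its complement, TTTC, any 2 bases, TTTC, is what is capitalized.
B2m, chr2:122147538-122147567, + strand: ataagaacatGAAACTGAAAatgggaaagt
Gbp2, chr3:142620594-142620623, + strand: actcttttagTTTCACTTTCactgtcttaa
Igtp, chr11:58199512-58199541, + strand: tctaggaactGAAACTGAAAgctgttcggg
Rsad2, chr12:26456553-26456582, - strand: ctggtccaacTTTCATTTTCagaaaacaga
A match is a description of the sequence and no evidence of binding. The words begin 139 bases before the start of B2m, 59 before Gbp2, 34 before Igtp and 120 before Rsad2.

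**Figure D4:**
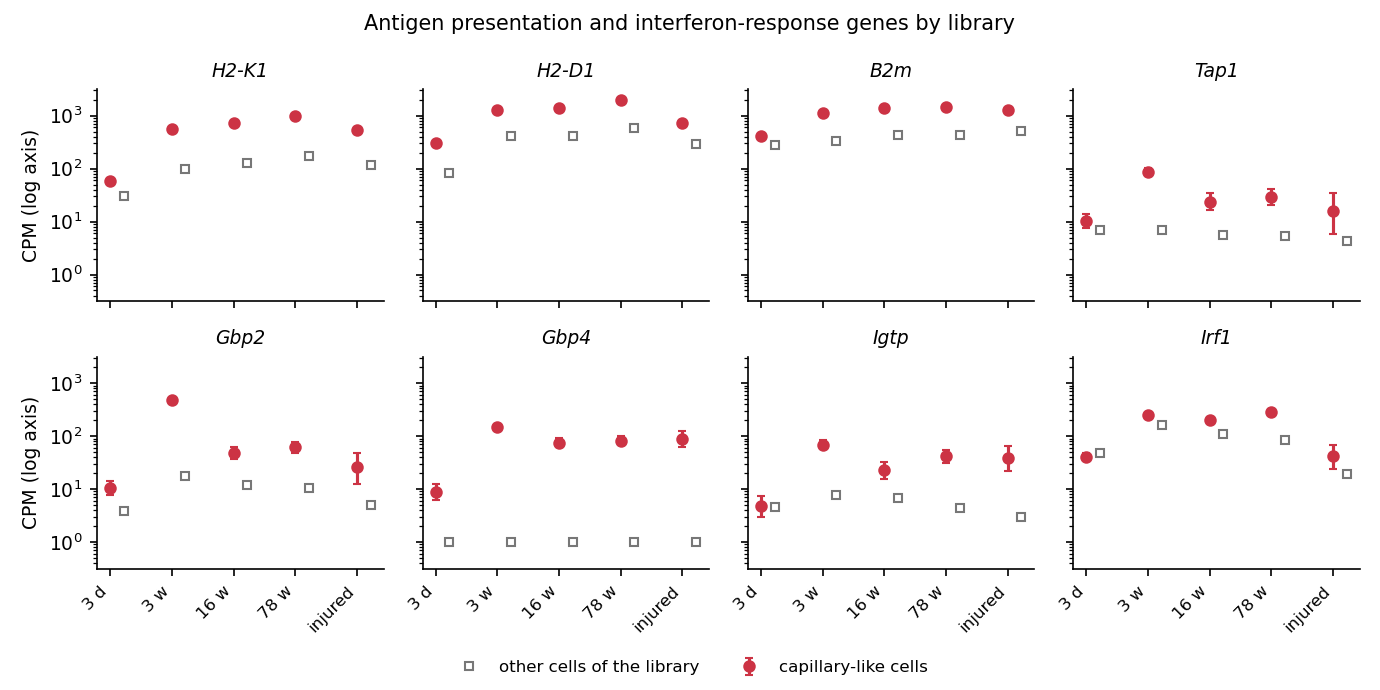
Levels (CPM, log axis) of 4 antigen presentation genes (upper row) and 4 interferon-response genes (lower row) in capillary-like cells (red, with 95% Poisson intervals) and in other cells of the same library (open grey squares), with values under 1 CPM drawn at 1. The members stand lowest at 3 d for H2-K1, H2-D1, B2m, Gbp2, Gbp4 and Igtp, and Gbp2 is highest at 3 w.

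Growth and proliferation genes were lower at 3 w. Of 12 cell cycle genes 11 were at least 2-fold lower, and Pcna was not. Top2a, the DNA topoisomerase of dividing cells, had 684 UMIs at 3 d and 1 UMI at 3 w, a ratio of 0.00361 (9.13e-05 to 0.0202). The gene 2810417H13Rik, whose product binds the replication clamp, had 0 UMIs at 3 w, which with a floor of 3 UMIs is at least 152-fold lower. Ccnb2, Spc24, Cenpf, Ube2c, Cdk1, Hells, Birc5 and Cenpw made up the rest of the 10 lowest ratios, each known for mitosis or DNA replication. Imprinted growth genes were lower for 8 of 9, with Igf2 at 1018 CPM at 3 d, 32.4 at 3 w, 27.8 at 16 w, 23.2 at 78 w and 0 in the injured library and Mest at 799 CPM at 3 d, 22.2 at 3 w, 5.40 at 16 w, 5.59 at 78 w and 31.5 in the injured library. Other cells had the same direction for Igf2, 1611 CPM at 3 d and 25.3 CPM at 3 w.

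Sprouting and vessel wall genes were divided. Among sprouting genes 5 of 9 were higher at 3 w and 2 lower. Esm1 and Dll4 were higher, with ratios of 3.96 (3.38 to 4.63) and 6.47 (5.26 to 8.01), and Apln and the potassium channel subunit gene Kcne3 were lower. Apln stood at 148 CPM at 3 d, 7.19 at 3 w, 10.8 at 16 w, 13.6 at 78 w and 63.03 in the injured library, and its receptor gene Aplnr, also a venular marker, at 294 CPM at 3 d, 24.6 at 3 w, 86.3 at 16 w, 87.9 at 78 w and 18.4 in the injured library. Both the ligand and the receptor gene were thus highest at 3 d. Basement membrane genes were lower for 5 of 13 and higher for 1, beside 24.3% lower and 14.2% higher among all genes compared, and 7 were within 2-fold, with Col4a1 at 3331 CPM at 3 d, 1434 at 3 w, 729 at 16 w, 609.6 at 78 w and 1563 in the injured library. Gpihbp1 and the fatty acid binding protein gene Fabp5 were at 0.275 (0.245 to 0.308) and 0.128 (0.103 to 0.157) times their 3 d levels, whereas Lpl, the lipase gene itself, was at 6.49 (4.87 to 8.73). Of 5 genes of the Ly6 family compared, to which Gpihbp1 belongs, 2 were higher and 2 lower. Ly6c1 and Ly6a, surface proteins of mature microvessels, were higher, with ratios of 3.59 (3.38 to 3.81) and 3.03 (2.82 to 3.26), and Ly6h, with 191 UMIs at 3 d and 1 at 3 w, was lower beside Gpihbp1.

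Most flow-responsive and immediate early genes compared were higher at 3 w. Of 5 flow-responsive genes compared, 4 (Klf2, Klf4, Klf6 and Nos3) were higher and 0 lower, beside 14.2% higher among all genes compared. Klf2, a transcription factor induced by shear stress, stood at 279.6 CPM at 3 d, 1539.9 at 3 w, 1886 at 16 w, 1790.5 at 78 w and 672 in the injured library, with 191 CPM at 3 d, 1181 at 3 w, 1489.6 at 16 w, 1034 at 78 w and 954 in the injured library in other cells. Klf2 was thus higher at 3 w in other cells as well, and its difference was not particular to the members. Immediate early and stress genes were higher for 11 of 13. Jun stood at 613 CPM at 3 d, 2302 at 3 w, 1910.5 at 16 w, 2657 at 78 w and 1045 in the injured library in members and at 790.0 CPM at 3 d, 1058 at 3 w, 1929.7 at 16 w, 1238 at 78 w and 895 in the injured library in other cells. The 3 w value was the higher one in both groups, by more in the members. These genes are also known to respond to tissue digestion, and their part in the difference was not tested. The 10 largest ratios among genes enriched over other cells were those of Fmo2, Slc7a11, Cd274, Fosl1, Gdf15, Iigp1, Gbp2, Tuba4a, Gm4070 and Gbp5. Fmo2, a flavin monooxygenase gene, went from 1 UMI at 3 d to 120.4 CPM at 3 w, 537 at 16 w, 498 at 78 w and 21.01 in the injured library. It stood high in the uninjured libraries from 3 w on. Cd274 encodes the checkpoint ligand PD-L1. Erythroid markers were lower for 4 of 4 and stromal markers were higher for 6 of 11 and lower for 2 (Lum and Ptn). Of 5 mural markers compared, Rgs5, Pdgfrb and Cspg4 were higher and Acta2 was lower, and Cspg4 lost its count without the members under 1000 CPM, at 11.1 CPM at 3 d and 22.1 CPM at 3 w. The part of these transcripts in the other differences was not tested.

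Between 3 w and 16 w fewer genes differed. Of 4622 genes, 283 (6.12%) were at least 2-fold higher at 16 w and 310 (6.71%) lower, in a comparison that shares the 3 w library with the one above. Sprouting genes were lower for 6 of 7 and higher for 0, with a median log2 ratio of -1.58 against -0.03 over all genes tested. Pgf stood at 6.55 CPM at 3 d, 140.2 at 3 w, 7.71 at 16 w, 13.6 at 78 w and 113 in the injured library, and its 16 w level was 0.0550 (0.0260 to 0.103) times that at 3 w. Cxcr4 and Dll4 had ratios of 0.157 (0.101 to 0.235) and 0.335 (0.261 to 0.426). Interferon-response genes were lower for 6 of 15, Gbp2 at a ratio of 0.100 (0.0761 to 0.130), whereas antigen presentation genes were higher for 2 and lower for 1 of 10. H2-K1 and B2m were within 2-fold, with ratios of 1.32 (1.20 to 1.44) and 1.21 (1.13 to 1.29).

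Venular markers were higher at 16 w for 5 of 10 and lower for 0. Selp stood at 5557 CPM in venular cells at 3 w and at 1879 CPM at 16 w. A single Selp UMI kept out 6 cells at 3 w and 27 at 16 w. Venular cells without a captured Selp transcript could thus enter the 16 w members more easily, and their part in these differences was not tested. Vwf, the gene of von Willebrand factor, stood at 27.4 CPM at 3 d, 26.4 at 3 w, 171 at 16 w, 157 at 78 w and 42.02 in the injured library, at a ratio of 6.49 (4.68 to 9.19), and Ackr1 at 14.3 (7.24 to 32.2). At least 2 of 5 venular markers had a UMI in 27.9% of members at 16 w (22.1 to 34.3) and 11.5% at 3 w (7.81 to 16.0). After thinning the shares were 9.72% (6.12 to 14.5) and 2.83% (1.15 to 5.75). Cxcl12 was higher at 16 w by a ratio of 5.13 (4.48 to 5.89), and Sparc, a collagen-binding matrix protein gene, was lower at 0.218 (0.209 to 0.227), with other cells at 25604 CPM at 3 w and 2816 CPM at 16 w. Gja1, a gap junction gene, stood at 133 CPM at 3 d, 1058 at 3 w, 143 at 16 w, 168 at 78 w and 738 in the injured library. Cldn5, a tight junction gene, was lower by a ratio of 0.104 (0.0705 to 0.148) and stood at 142 CPM at 3 d, 245 at 3 w, 25.4 at 16 w, 204 at 78 w and 68.3 in the injured library. Among markers of other cells, 3 of 11 stromal markers were lower at 16 w (Col1a1, Col1a2 and Col3a1) and 0 higher, with Col1a1 at 3510 CPM at 3 w and 297 CPM at 16 w in members and at 12400 and 899 CPM in other cells. Of 5 mural markers compared, Acta2 and Tagln were higher and Rgs5 was lower, and the 10 listed summed to 234 CPM at 3 w and 529.7 CPM at 16 w. The part of these transcripts in the differences was not tested.

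The 10 largest ratios at 16 w were those of Ankrd1, Fam174b, Ackr1, Cadm3, Shtn1, Vwf, Thrsp, AW112010, Spint2 and H2-Q6. All 180 UMIs of Ankrd1 came from 1 cell, so its value describes that cell. Thrsp, a regulator of fatty acid synthesis, stood at 7.76 CPM at 3 d, 20.4 at 3 w, 119.5 at 16 w, 127 at 78 w and 10.5 in the injured library. The 10 lowest ratios were those of Ccl21a, Mmrn1, Slc7a11, Gdf15, Pgf, Reln, Lyve1, Gbp2, Cldn5 and Pycard. Ccl21a, Mmrn1, Reln and Lyve1 are lymphatic genes, and the lymphatic list was lower for 6 of 6. At 3 w 98.3% of Lyve1 UMIs and all UMIs of Mmrn1 and Reln came from 8 cells, and no such cell was found at 16 w. Without cells that had at least 2 lymphatic markers, a step that itself removes UMIs of Lyve1 and Reln, the ratio came to 6.03 for Lyve1 and to 1.10 for Reln and Ccl21a, which were then at or under the floor of 3 UMIs in both libraries. Ccl21a has near-identical gene copies among which reads may be split, so its level is uncertain.

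The fewest genes were counted between 16 w and 78 w, a comparison that shares the 16 w library with the previous one. Of 4156 genes, 86 (2.07%) were at least 2-fold higher at 78 w and 35 (0.842%) lower. Lymphatic genes were higher for 6 of 6, and 12 cells at 78 w carried at least 4 lymphatic markers. These cells held 98.0% of Lyve1, 97.7% of Nts and 97.0% of Prox1 UMIs of the 78 w members. Prox1 is the transcription factor that sets lymphatic identity. Without cells that had at least 2 lymphatic markers the ratios of Lyve1, Nts, Prox1 and Ccl21a were 0.0998, 0.878, 0.274 and 0.732. The first 3 of these genes are among the markers that chose the cells to remove, so their loss was largely set by the step, and few UMIs remained.

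Outside the lymphatic list, Cldn5 was higher at 78 w by a ratio of 8.01 (5.56 to 11.9) and Timp4, a metalloproteinase inhibitor gene of capillaries, by 5.30 (3.80 to 7.57). Timp4 stood at 6.55 CPM at 3 d, 61.7 at 3 w, 32.4 at 16 w, 172 at 78 w and 0 in the injured library, and was highest at 78 w. Lpl and Cd74, the invariant chain of MHC class II, had ratios of 2.86 (2.18 to 3.78) and 2.37 (1.68 to 3.39). H2-K1 was within 2-fold, at 1.36 (1.25 to 1.48), and 0 of 12 interferon-response genes and 0 of 13 immediate early genes passed 2-fold. The 10 largest ratios were those of Ccl21a, Mmrn1, Col10a1, Col2a1, Reln, Lyve1, Nts, Scube1, Prox1 and 3110079O15Rik. Scube1 had 60 UMIs at 78 w and 5 at 16 w, and without the members under 1000 CPM its ratio was 0.429, that is, on the lower side. Of the Col10a1 and Col2a1 UMIs, both cartilage collagen transcripts, 90.2% and 91.2% came from 1 cell each. Enriched genes that were at least 2-fold lower were the 5 genes Ankrd1, Tmem158, Tia1, Ackr1 and Slfn2, with Ackr1 at a ratio of 0.446 (0.304 to 0.643). Slfn2 came to 0.512 without the members under 1000 CPM and lost its count. Of the stromal markers Lum was higher and Col1a1 lower at 78 w, and of 4 mural markers Rgs5 was higher and Acta2 and Tagln were lower. Without the members under 1000 CPM Lum was no longer 2-fold higher, at 80.03 CPM at 16 w and 142.6 CPM at 78 w, and Rgs5 was lower at 78 w, at 10.2 and 6.40 CPM.

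The injured library was compared with 3 w and 16 w together, and a gene was counted only when it passed 2-fold in the same direction against both, which also serve the age comparisons. Of 3581 genes, 59 (1.65%) were higher and 302 (8.43%) lower. The median log2 ratio over all of them was -0.29, each gene's ratio being averaged over both references. A UMI was worth 2.63 CPM in the injured library, 0.599 at 3 w and 0.771 at 16 w. The minimum of 50 UMIs in the higher library thus stood for a higher level in the injured library. A low gene could count as lower more easily than as higher, which partly sets the balance of these counts. Apln, with 24 UMIs and 63.0 CPM in the injured library against 7.19 and 10.8 CPM, was not compared. The injured members held Xist, the transcript of the inactive X chromosome, at 672 CPM, and 0 UMIs of Ddx3y, Eif2s3y, Kdm5d and Uty, which lie on the Y chromosome. The Y-linked genes were present in the 3 male libraries, with Ddx3y at 148, 99.5 and 110.3 CPM from 3 w to 78 w, and Xist had at most 0.599 CPM. Effects of injury therefore cannot be told apart from those of sex, age or library.

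Several fatty acid handling genes were low in the injured members. Of 8 fatty acid genes 4 were lower (Cd36, Fabp4, Fabp5 and Lpl) and 0 higher, and of 9 capillary markers 2 were lower (Cd36, which is on both lists, and Aqp1) and 7 did not pass 2-fold against both references. Among the latter, Rgcc stood at 798 CPM against 817 at 3 w and 797 at 16 w, whereas Gpihbp1, Cd300lg, Meox2, Tcf15, Btnl9 and Sgk1 were below both references. Gpihbp1 stood at 68.3 CPM against 199 and 125, Cd300lg at 121 against 195 and 173, and Sgk1 at 328 against 358 and 386. The median log2 ratio of the capillary markers was -0.64, against -0.29 over all genes compared. Cd36, a fatty acid translocase gene, stood at 259 CPM at 3 d, 306 at 3 w, 241 at 16 w, 314 at 78 w and 44.6 in the injured library. The injured level was 0.146 (0.0845 to 0.236) times that at 3 w and 0.186 (0.107 to 0.302) times that at 16 w, and it lay below all 4 uninjured libraries. Fabp4, an intracellular fatty acid carrier gene, stood at 3169 CPM at 3 d, 1899 at 3 w, 1898 at 16 w, 3018 at 78 w and 796 in the injured library, and Aqp1 at 465 CPM at 3 d, 841 at 3 w, 1088 at 16 w, 939.6 at 78 w and 318 in the injured library. Both were lowest after injury. Lower levels were also seen in the other endothelial classes. Cd36 stood at 52.5 CPM in injured arterial cells against 268 at 3 w and 329 at 16 w, and at 46.6 CPM in injured venular cells against 221 and 98.5. Aqp1 had 274 CPM in injured arterial cells against 467 and 792 and 652 CPM in injured venular cells against 1527 and 1667. Fabp4 stood at 1036 CPM in injured arterial cells against 1904 and 1510, and at 3082 CPM in injured venular cells against 3579.9 and 3434. Whether the members differed from these classes was not tested. Klf2, Junb and Ier2 were also lower, as was the caveolar coat gene Cavin2, named Sdpr in the file.

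Jag1, Cxcr4 and Col18a1 were higher in the injured members. Jag1, the Notch ligand gene, stood at 27.9 CPM at 3 d, 46.1 at 3 w, 33.9 at 16 w, 28.8 at 78 w and 284 in the injured library, with ratios of 6.15 (4.55 to 8.35) to 3 w and 8.36 (5.84 to 12.2) to 16 w. Other cells of the injured library had 72.8 CPM of Jag1 against 22.1 and 24.2 CPM at 3 w and 16 w, and arterial cells 469 against 152 and 74.97 CPM. Cxcr4 stood at 11.4 CPM at 3 d, 132 at 3 w, 20.8 at 16 w, 15.98 at 78 w and 294 in the injured library, and Col18a1, a basement membrane collagen whose fragment is endostatin, at 284 CPM at 3 d, 66.5 at 3 w, 19.3 at 16 w, 51.9 at 78 w and 239 in the injured library. Col18a1 was higher still at 3 d, and Cxcr4 was low there. Cxcr4 was likewise higher in injured arterial cells, with 435 CPM against 155 and 10.6, in injured venular cells, with 186 CPM against 30.5 and 0.763, and in other cells, with 18.5 CPM against 3.74 and 2.62. Col18a1 had 304 CPM in injured arterial cells against 181 and 62.8. The higher levels were thus seen outside the members as well. Esm1 had ratios of 1.16 (0.929 to 1.43) and 2.33 (1.82 to 2.99) and did not pass 2-fold against 3 w.

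The 10 largest ratios among enriched genes belonged to Jag1, Col18a1, Ccl2, Nmt1, Hsph1, Crip1, Marcksl1, Hspa1b, Kdm6b and Cxcr4. Hspa1b and Hsph1 encode heat shock proteins, and Hspa1b stood at 206 CPM at 3 d, 439 at 3 w, 1046 at 16 w, 1052 at 78 w and 2692 in the injured library. Ccl2 came from 6 cells, 1 of which held 48.8% of its UMIs. The 10 lowest ratios were those of Apobec3, Gbp9, Gpr146, Rapgef3, Trim56, Fmo2, Plcb4, Lpl, Cd36 and Grrp1, of which Apobec3, Gbp9, Gpr146, Rapgef3, Trim56 and Lpl had 1 to 4 UMIs in the injured library. Without the members that had at least 2 lymphatic markers Cxcr4 and Kdm6b came to ratios of 1.98 and 1.96 to the nearer reference and lost their calls, as did Ccl2. Interferon-response genes were lower for 3 of 9 (Ifit1, Irf1 and Rsad2) and higher for 0. Irf1, an interferon-induced transcription factor gene, stood at 41.2 CPM at 3 d, 246 at 3 w, 202 at 16 w, 289 at 78 w and 42.02 in the injured library, and at 48.5 CPM at 3 d, 166 at 3 w, 108 at 16 w, 83.04 at 78 w and 18.9 in the injured library in other cells, which were lower after injury too. Stromal markers were higher for 3 of 11 (Col1a1, Lum and Ptn), with Col1a1 at 7149 CPM in members and 22866 CPM in other cells. Without the members under 1000 CPM Ptn kept its count and the other two lost it, with Col1a1 at 3053 CPM in the injured library against 2418 at 3 w, and Lum at 152 CPM against 89.1. Without those members the injured stromal sum was 11593 CPM, below the 16836 and 13433 CPM at 3 w and 16 w. The part of stromal transcripts in the injured profile was not tested.

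**Figure D5:**
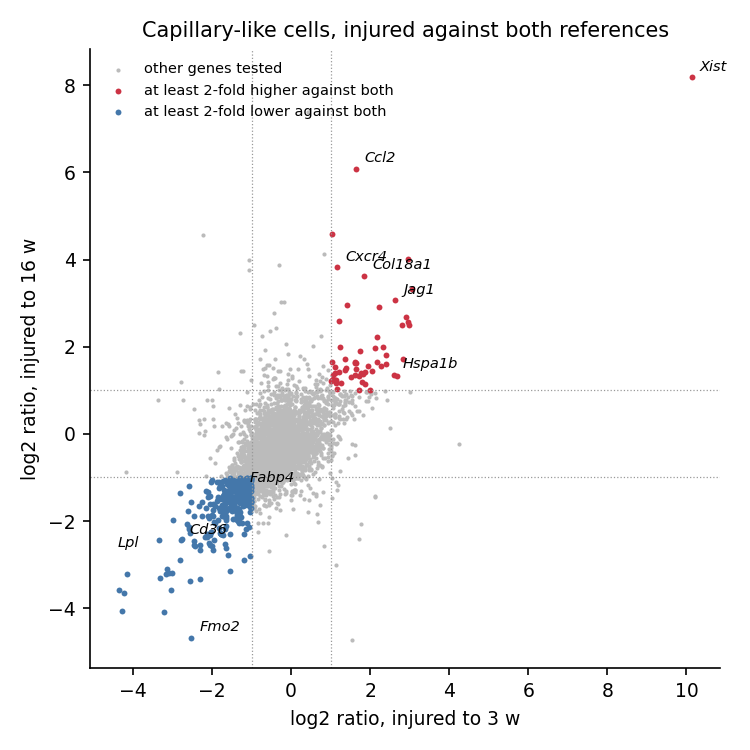
Log2 CPM ratio of the injured library to 3 w (x axis) and to 16 w (y axis) in capillary-like cells, 1 point per gene tested, with dotted lines at 2-fold. Red points (59 genes) passed 2-fold upward and blue points (302 genes) downward against both references, with Jag1, Col18a1 and Cxcr4 among the former and Cd36, Fabp4 and Lpl among the latter.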

How the data were processed

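UMI counts were deposited by the authors as 1 filtered 10x matrix per library, unnormalized. They were made with Cell Ranger on mm10 (version 3.1 in the submitters' processing notes and 4.0.0 in the file headers). Each disc had been digested with Pronase and Collagenase P. The members, the 26 gene lists and the tests were chosen with earlier results of these data known. Cells with over 30% mitochondrial UMIs were left out, which kept 14959, 9372, 8775, 10115 and 8467 cells from 3 d to injured, and library totals were 125130270, 125427849, 88998394, 105309834 and 31585993 UMIs. UMIs were summed per library and class and scaled to CPM over each class and library. Each condition is 1 library, so libraries were compared by CPM ratios with exact 95% intervals and no test. Genes with at least 50 UMIs in the higher library were compared, and an absent gene was set to a floor of 3 UMIs. Classes were compared with edgeR 4.0.16 in R 4.3.3 (TMM, filterByExpr, quasi-likelihood test, library as a block, Benjamini-Hochberg over all genes tested, 0.05 threshold). DESeq2 1.42.0 was an alternative. On simulated data the test recovered 71.6% of 109 genes changed 2-fold between capillary-like and venular cells. The simulation used a fixed dispersion and the same fold in every library. The share recovered therefore does not describe genes whose difference varies by library. Scrublet in scanpy 1.11.5 called 5 cells at its own threshold, which is too few to have worked, so no doublets were removed, and leaving out the highest 5% of scores, 204 members among them, was an alternative. Other alternatives were a 10% mitochondrial limit, 4 of 6 endothelial genes, thinning to 1000 UMIs, cells of at least 5000 UMIs, no filter on low counts, RLE scaling, 100 UMIs as minimum, equal weight per cell, removal of cells with 2 lymphatic markers and leaving out each library. Named genes were the 10 with the largest ratio in each direction that were at least 2-fold above other cells in the higher library or, in edgeR, the 10 with the largest log2 difference and the same sign in every library, beside members of the lists. Python 3.11.15 with numpy 2.4.6, pandas 2.3.3, scipy 1.17.1 and matplotlib 3.10.9 was used.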

Additional observations from a re-analysis of the deposited data

How the results depend on the processing

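The shares of capillary-like cells moved beyond their counting intervals with depth and with the rule. Thinned to 1000 UMIs they were 3.40% at 3 d, 3.45% at 3 w, 3.45% at 16 w, 2.87% at 78 w and 1.26% in the injured library. With 4 of 6 endothelial genes they were 3.18% at 3 d and 1.15% in the injured library, and without the highest 5% of Scrublet scores 3.25% at 3 d. With at least 100 UMIs 1170 genes were lower at 3 w than at 3 d, 140 higher and 205 lower at 16 w than at 3 w, 40 higher and 18 lower at 78 w than at 16 w, and 38 higher and 138 lower after injury, since fewer genes were compared. Without the members under 1000 CPM of the endothelial genes, an alternative added after seeing the data, 56 genes were higher at 78 w. DESeq2 called 157 genes higher in capillary-like than in venular cells, and 58 and 149 higher in capillary-like and arterial cells. Without a filter on low counts the latter were 235 and 411. Leaving out 1 library gave 130 to 365 and 284 to 605 calls against venular cells, and 48 to 112 and 109 to 205 against arterial cells.

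Of 375 values of the 75 genes named between libraries, 354 kept their call, 13 lost it and 8 changed direction. Without cells with at least 2 lymphatic markers the 16 w to 3 w ratios were 6.03 for Lyve1 and 1.10 for Ccl21a and Reln, which were then at or under the floor in both libraries. The 78 w to 16 w ratios were 0.732 for Ccl21a, 0.0998 for Lyve1, 0.878 for Nts and 0.274 for Prox1. The Scube1 ratio was 0.429 without the members under 1000 CPM. Of 420 values of the 40 genes named between classes, 398 kept their call, 22 lost it and 0 changed direction. No paired analysis was possible because each condition is 1 library, and between classes the library already served as the block. Intervals cover counting error only, and at 2.63 CPM per UMI low genes of the injured library could not be resolved.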
